A study of Caenorhabditis elegans with 2 samples.

Results

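The proteasome subunit genes of Caenorhabditis elegans were examined for regions enriched with HPL-2, one of the HP1 family proteins of the worm, at their 5′ ends. Members were the protein-coding genes of the WBcel235 annotation whose names start with pas, pbs, rpt or rpn followed by a number, which gave 33 of 19985 protein-coding genes. The core particle accounted for 14 of them, 7 pas genes for the alpha rings and 7 pbs genes for the beta rings. The regulatory particle accounted for the other 19, with 6 rpt genes for its ATPases and 13 rpn genes for its remaining subunits. The naming rule uses no measured value, but the family was picked with earlier results of these data known.

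The study used chromatin immunoprecipitation followed by sequencing (ChIP-seq) in whole first-stage (L1) larvae, males and females pooled, that had been starved after bleaching. The single group was strain YL474, which carries lin-35(n745), unc-119(ed3) and the integrated array vrIs64, in which the ges-1 promoter, an intestinal promoter, drives HPL-2 fused to GFP and FLAG, beside unc-119(+). All animals carried the lin-35 mutation. The labels describe the target both as the tagged protein and as HPL-2, so it cannot be told whether the endogenous protein of other tissues contributed. Biological replicates 1 and 3 were available, with no second condition and no untagged sample. For each library and for both pooled, the authors deposited 30000 candidate regions, each with a summit and a signal, which is the enrichment value of their region caller. Their thresholded list on genome build ce11 was exactly the 857 pooled candidates of highest signal, all at 37.9 or above. Read depth is unknown, and signal is not on 1 scale across lists, so libraries are compared by rank, where rank 1 is the strongest region.

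The proteasome degrades proteins marked with ubiquitin. Its core particle is a barrel of alpha rings, which gate the entrance, and beta rings, which hold the proteolytic sites. The regulatory particle recognises ubiquitin, removes it and uses a ring of ATPases to unfold the substrate and feed it into the core. In C. elegans the transcription factor SKN-1 induces proteasome subunit genes when proteasome function is impaired. HPL-2 is known to bind methylated histone H3 and, like the retinoblastoma homologue LIN-35, to act in gene repression.

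A candidate summit within 500 bp of a 5′ end was more common at proteasome genes than at protein-coding genes in general. In the pooled list 27 of the 33 members had one (81.8%), against 39.6% of all protein-coding genes. A thresholded region lay at 9 of the 33 (27.3%), against 3.34% of all protein-coding genes. These were pas-4, pas-7, pbs-1 and pbs-3 of the core and rpt-2, rpt-6, rpn-3, rpn-9 and rpn-11 of the regulatory particle. The 9 regions were distinct, but 6 of them also lay within 500 bp of the 5′ end of another protein-coding gene. The genes are not replicates and there is no second group, so these shares are descriptions and no test was run on them. By particle, the thresholded shares were 4 of 14 core genes (28.6%) and 5 of 19 regulatory genes (26.3%).

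The regions at proteasome genes were of moderate strength. Over the 27 members with a pooled candidate, the best signal per gene ran from 8.84 to 60.2 with a median of 20.6, where the median over all 7918 genes with a candidate was 13.6. None reached the strength of the top ribosomal protein gene, at 176. Counting genes without a candidate as last, the median member stood at rank 7117. The lowest thresholded member was pas-7 at signal 40.3 and rank 746, and the strongest member below the threshold was rpn-2 at 31.7 and rank 1290. Of the 20 vacuolar ATPase genes, 16 had a pooled candidate and 4 a thresholded region (20%). Of the 78 cytoplasmic ribosomal protein genes, 69 had a pooled candidate and 52 a thresholded region (66.7%).

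**Figure D1:**
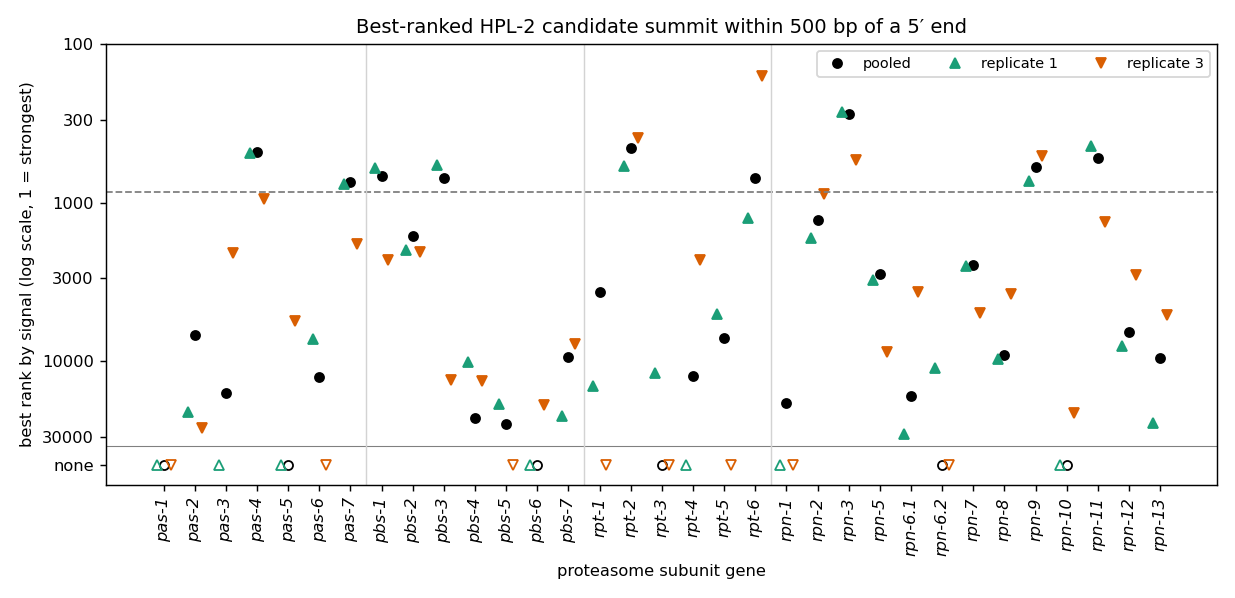
Best rank by signal (log scale, rank 1 strongest, at the top) of any candidate summit within 500 bp of a 5′ end for each of the 33 genes, in the pooled list (circles), replicate 1 (upward triangles) and replicate 3 (downward triangles). Open symbols mark lists without a candidate, vertical lines separate alpha, beta, ATPase and other regulatory subunits, and the dashed line is rank 857. The pooled circles of 9 genes lie above that line, from rank 277 at rpn-3 to rank 746 at pas-7.

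Among the ATPases of the regulatory particle, which form the unfolding ring, rpt-2 and rpt-6 had thresholded regions. The region at rpt-2, chrV:6017627-6018002, had a pooled signal of 50.3 (rank 454), a signal of 35.6 in replicate 1 (rank 585) and of 14.4 in replicate 3 (rank 390). It was thus strong in both libraries. At rpt-6 the pooled region chrIII:12369920-12370295 had a signal of 41.4 (rank 699), while the best summit ranked 1243 in replicate 1 (signal 25.8) and 160 in replicate 3 (signal 19.1). This was the best rank of any member in replicate 3, and its summit there lay 230 bp upstream of the 5′ end, whereas in replicate 1 it lay 357 bp upstream. The pooled list held a separate candidate 141 bp upstream of rpt-6, with a signal of 21.1 (rank 3423). The other ATPase genes were weaker. Pooled signals were 20.6 at rpt-1, 15.7 at rpt-5 and 12.4 at rpt-4, each of which lacked a candidate in 1 of the libraries. The rpt-4 candidate lay by an internal annotated 5′ end, not the outermost. The gene rpt-3 had no pooled candidate.

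Among the remaining regulatory subunits, rpn-3, rpn-11 and rpn-9 had thresholded regions. The strongest region at any proteasome gene, chrIII:8446990-8447365, was at rpn-3, the gene of a subunit of the lid. Its signal was 60.2 in the pooled list (rank 277), 48.5 in replicate 1 (rank 270) and 13.0 in replicate 3 (rank 541). At rpn-11, the gene of the deubiquitinase of the lid, the region chrII:4044369-4044744 had a pooled signal of 47.1 (rank 522). Its rank was 440 in replicate 1 (signal 40.2) and 1331 in replicate 3 (signal 9.62), so only replicate 1 placed it in the top 857. At rpn-9, another lid subunit gene, the region chrII:11239070-11239445 had a pooled signal of 44.0 (rank 600), with 32.0 in replicate 1 (rank 735) and 13.2 in replicate 3 (rank 506).

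Below the threshold, the strongest regulatory genes were rpn-2, rpn-7 and rpn-5. The gene rpn-2 encodes a large scaffold subunit of the base and had a pooled signal of 31.7 (rank 1290), with rank 1680 in replicate 1 (signal 23) and 887 in replicate 3 (signal 11.1). The lid genes rpn-7 and rpn-5 had pooled signals of 24.1 (rank 2479) and 23 (rank 2806). For rpn-7 the ranks were 2522 in replicate 1 and 4968 in replicate 3. For rpn-5 they were 3061 and 8767. The rest, rpn-1, rpn-6.1, rpn-8, rpn-12 and rpn-13, lay between rank 6517 and 18255 in the pooled list, with signals from 10.4 at rpn-1 to 16.2 at rpn-12. Of these, rpn-1, the gene of the other large scaffold subunit, had no candidate in either library, and its pooled summit was 475 bp from the 5′ end, close to the 500 bp limit. The genes of the ubiquitin receptor RPN-10 and of RPN-6.2 had no pooled candidate.

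In the core particle, the alpha ring genes with a thresholded region were pas-4 and pas-7. The pas-4 region, chrI:8728435-8728810, was the strongest of the core, with a signal of 48.6 in the pooled list (rank 482), 38.9 in replicate 1 (rank 487) and 10.9 in replicate 3 (rank 949). Its summit lay 136, 136 and 139 bp upstream of the 5′ end in the 3 lists. At pas-7 the region chrII:10099946-10100321 had a signal of 40.3 in the pooled list, 31.6 in replicate 1 (rank 766) and 8.62 in replicate 3 (rank 1835). In the beta ring, pbs-1 and pbs-3 had thresholded regions. The gene pbs-1 corresponds to the subunit with caspase-like activity in yeast and mammals. Its region, chrIV:1709754-1710129, had a pooled signal of 41.8 (rank 682), with 34.9 in replicate 1 (rank 603) and 7.94 in replicate 3 (rank 2312). The gene pbs-3 encodes a beta subunit without proteolytic activity. Its region, chrII:4955364-4955739, had a pooled signal of 41.4 (rank 703) and 35.9 in replicate 1 (rank 576), but only 3.81 in replicate 3 (rank 13155). The libraries disagreed most at this gene among the thresholded members.

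Of the core genes below the threshold, pbs-2 was the strongest. It corresponds to the subunit with trypsin-like activity and had a pooled signal of 28.6 (rank 1635), with rank 1975 in replicate 1 (signal 21.5) and 2052 in replicate 3 (signal 8.28). It was followed at a distance by pas-2 (pooled signal 15.9, rank 6825) and pbs-7 (pooled signal 14, rank 9411). The gene pas-2 ranked 20855 in replicate 1 and 26275 in replicate 3. The gene pbs-7 ranked 21992 and 7735. The remaining core genes with a pooled candidate, pas-3, pas-6, pbs-4 and pbs-5, had signals from 8.84 to 12.3. Among them pas-3 ranked 2087 in replicate 3 (signal 8.24) and had no candidate in replicate 1. The gene pbs-5, which corresponds to the subunit with chymotrypsin-like activity, had the weakest pooled candidate of all members (rank 24858).

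The members among the strongest regions differed between the libraries. The top 857 regions of replicate 1 included 8 members (24.2%, against 3.21% of all protein-coding genes), namely the 4 thresholded core genes and rpt-2, rpn-3, rpn-9 and rpn-11. Those of replicate 3 included 4 members (12.1%, against 2.87%), namely rpt-2, rpt-6, rpn-3 and rpn-9. None of the 14 core genes was among the replicate 3 regions. If genes were independent draws, a count of 0 would allow up to about 3 of the 14 (21.4%), a rough limit and not a test. That limit does not measure the spread between libraries. A top region in both libraries was found at 3 members, rpt-2, rpn-3 and rpn-9 (9.09%, against 1.59%), all of the regulatory particle. At a deeper rank the core counts did not differ between the libraries. Up to rank 3000, a limit added after the values were seen, 5 of 14 core genes (35.7%) were reached in replicate 1 and as many in replicate 3. They were not all the same genes. In replicate 1 they included pbs-3, which ranked 13155 in replicate 3. In replicate 3 they included pas-3 (rank 2087), which had no candidate in replicate 1. For regulatory genes the counts were 7 (36.8%) and 8 of 19 (42.1%), and for all protein-coding genes the shares were 8.67% and 7.81%. Of the 8 core genes with a candidate in both libraries, 1, pbs-7, ranked better in replicate 3 than in replicate 1. For regulatory genes this was 8 of 12, and over all 4574 genes with candidates in both libraries it was 47.4%. The 8 included rpn-6.1 and rpn-8, whose best summits were at different places in the libraries. They lay 383 and 290 bp downstream of the 5′ end in replicate 1, and 233 and 243 bp upstream in replicate 3. With 2 libraries, whether the particles differ in how the libraries rank them was not tested. The pooled list holds the reads of both libraries and is not independent of either.

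**Figure D2:**
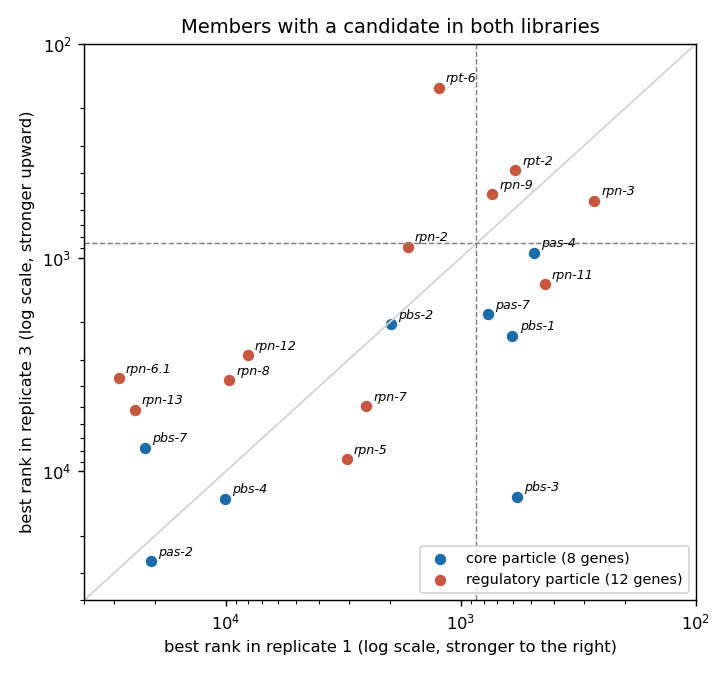
Best rank in replicate 1 (horizontal) and replicate 3 (vertical), both on log scales with stronger regions to the right and upward, for the 8 core and 12 regulatory genes with a candidate in both libraries. Dashed lines mark rank 857 and the diagonal marks equal ranks. The best summits of a gene can lie at different places in the 2 libraries. In the upper right corner lie rpt-2, rpn-3 and rpn-9, while pbs-3 is strong in replicate 1 alone and rpt-6 is stronger in replicate 3.

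**Figure D3:**
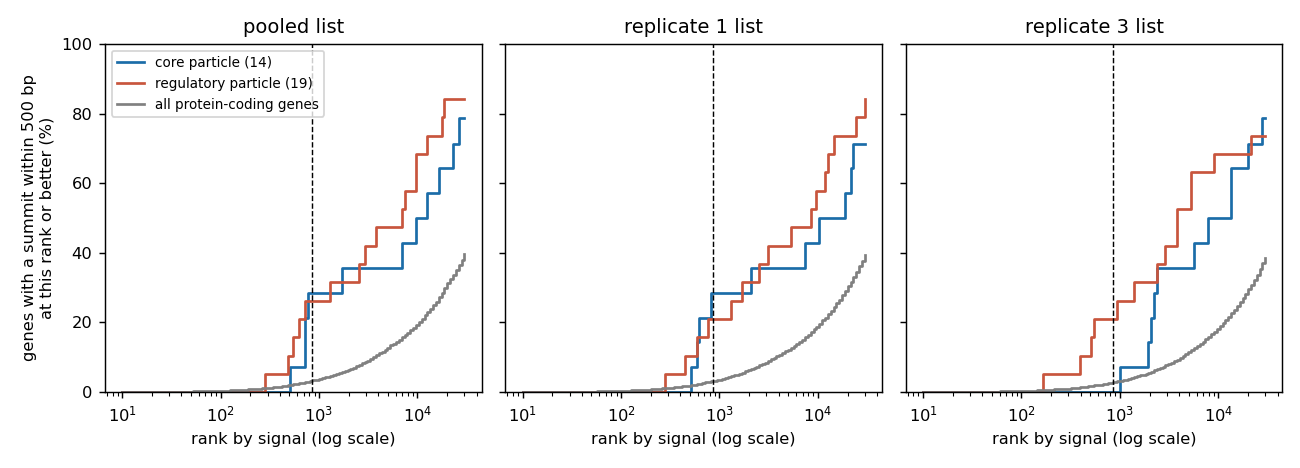
Share of core genes, regulatory genes and all protein-coding genes (%) with a summit within 500 bp of a 5′ end at a given rank or better (log scale), in the pooled, replicate 1 and replicate 3 lists. The dashed line is rank 857. At that rank the core curve stands at 28.6% in the pooled list and in replicate 1 and at 0% in replicate 3, while the regulatory curve stands at 26.3%, 21.1% and 21.1%.

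Summits at proteasome genes lay upstream of the 5′ end. All 9 thresholded summits were upstream, between 11 bp at rpn-11 and 348 bp at rpt-6, with a median of 175 bp. For all 667 protein-coding genes with a thresholded region the share upstream was 93.1% and the median distance 209 bp. Best summits of replicates 1 and 3 were apart at rpn-9 (361 and 284 bp upstream), rpn-11 (11 and 94 bp) and pbs-1 (194 and 303 bp). So they were at pbs-3 (146 and 30 bp), rpt-2 and rpt-6. They were closer together at pas-4, pas-7 (280 and 301 bp) and rpn-3 (181 and 138 bp). Including weaker candidates, 25 of 27 members (92.6%) had their strongest summit upstream, where the share over all genes with a candidate was 65%. It was 98.6% at ribosomal protein genes and 87.5% at vacuolar ATPase genes, so this position was not particular to proteasome genes. The exceptions among the members were rpn-5, 36 bp downstream, and rpn-8, 309 bp downstream, and both were in an exon of the gene itself.

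**Figure D4:**
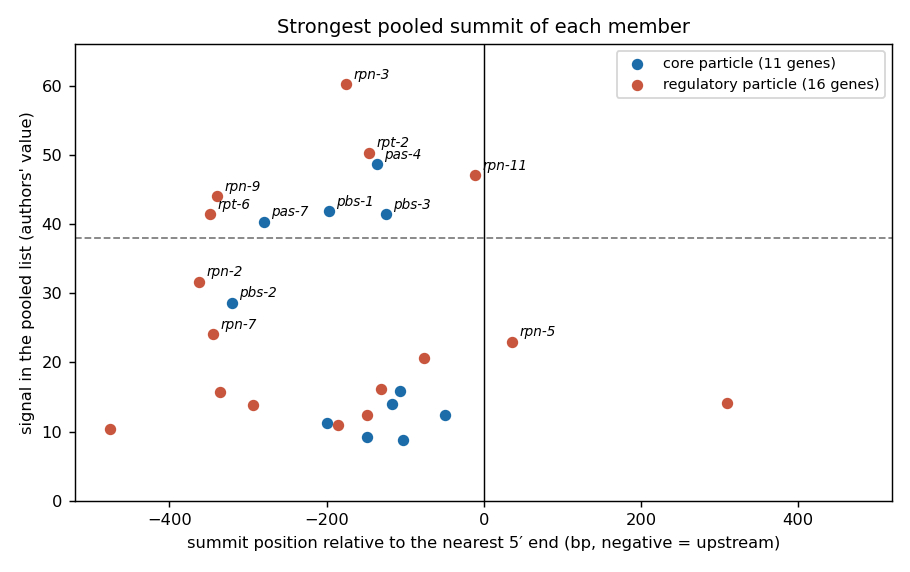
Pooled signal of the strongest candidate of each of the 27 genes against the position of its summit relative to the nearest annotated 5′ end (bp, negative upstream). The dashed line is the lowest thresholded signal, 37.9. All 9 points above it lie upstream, and only rpn-5 and rpn-8 lie downstream.

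Most of these regions were shared with a divergent gene. Of the 27 members, 18 (66.7%) shared their strongest region with another protein-coding gene whose 5′ end was also within 500 bp of the summit. In each case that gene lay on the opposite strand, but not every summit lay between the genes. The summit was in an exon of the partner at pas-3 (44 bp into use-1) and rpn-6.1 (96 bp into F57B9.1). At rpn-5 it was in an exon of rpn-5. The share of genes with a shared region was 19.3% over all genes with a candidate and 49.5% over all genes with a thresholded region. Among genes with any candidate it was 59.4% for ribosomal protein genes and 31.2% for vacuolar ATPase genes. Among the 9 thresholded members, 6 shared their region. The rpn-3 summit, 175 bp from its own 5′ end, was 269 bp from that of hsp-110, a chaperone gene of the HSP110 family. The pas-4 summit was about midway, 136 bp from pas-4 and 141 bp from rpb-3, an RNA polymerase II subunit gene. The rpt-2 summit was 146 bp from rpt-2 and 155 bp from aps-1, a clathrin adaptor subunit gene. The rpn-9 summit was 339 bp from rpn-9 and equally far from T06D8.9. At pbs-1 the distances were 197 bp to pbs-1 and 323 bp to K08D12.3. By pooled summit, only at pas-7 was the partner nearer, 176 bp to puf-12, a Pumilio family gene, against 280 bp to pas-7. The nearer gene changed with the library at some others. At pbs-1, 520 bp from the 5′ end of K08D12.3, the replicate 3 summit lay 303 bp from pbs-1, nearer the partner. In replicate 1 the partner was nearer at rpn-9 (summit at 361 bp of 678 bp) and at rpt-2 (154 bp of 301 bp). A region between divergent genes cannot be assigned to either of them from these lists.

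**Figure D5:**
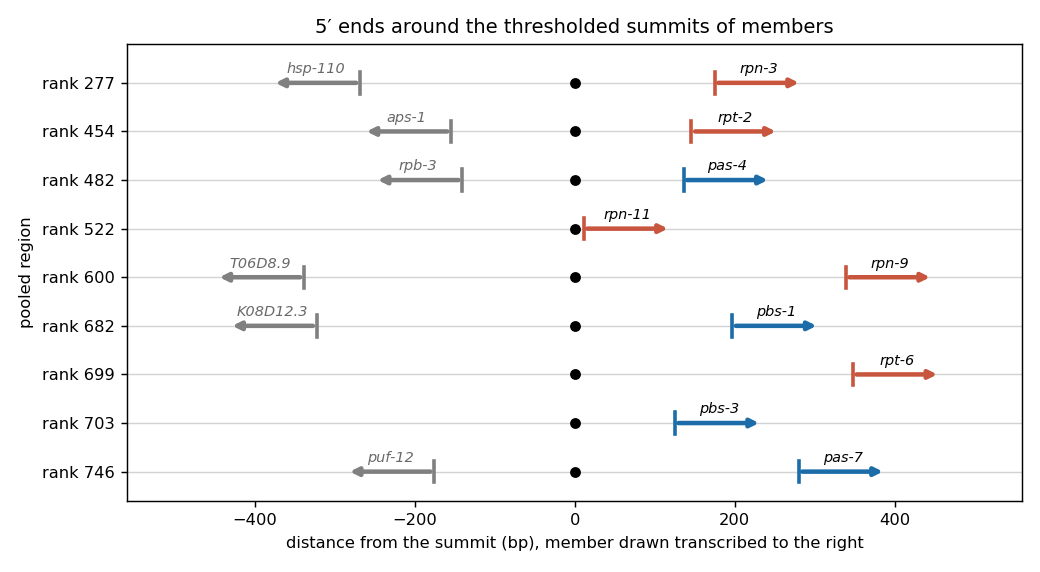
The 9 thresholded regions at proteasome genes, ordered by pooled rank, drawn with the summit at 0 bp (black dot) and the member transcribed to the right. Coloured arrows start at the 5′ end of the member (blue core, red regulatory) and grey arrows at the 5′ end of any other protein-coding gene within 500 bp. In 6 of the 9 a divergent gene lies on the far side of the summit.

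Below the threshold, 12 further members shared their region with a divergent gene. One region stood between a pair of genes of the same pathway: the candidate at rpn-12 (pooled signal 16.2, rank 6517) was 131 bp from rpn-12 and 264 bp from rad-23, whose product carries ubiquitinated proteins to the proteasome. Others were shared with scc-1, a cohesin subunit gene, at rpn-5, with eif-6, a ribosome assembly factor gene, at pbs-2, and with nfyc-1, an NF-Y subunit gene, at rpt-4. The partner's 5′ end was nearer to the pooled summit at pas-2, pas-3, rpt-4, rpt-5, rpn-1, rpn-6.1 and rpn-7.

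Divergent neighbours were themselves common at proteasome genes. In classes chosen after the values were seen, 20 of the 33 members (60.6%) had the 5′ end of an opposite-strand gene within 1000 bp upstream and no same-strand gene ending within 500 bp, against 17.5% of all protein-coding genes. Within that class, a pooled candidate was present at 19 of 20 members (95%) and at 52% of all genes, and a thresholded region at 6 of 20 members (30%) and at 10.2% of all genes. The shares at members were higher than those of all genes of this class, which was not matched for the gap between the 5′ ends. Whether divergent neighbours account for the shares at members was not tested. The 5 members with neither neighbour, pas-5, pbs-4, rpt-1, rpt-4 and rpt-6, included 4 with a candidate and 1, rpt-6, with a thresholded region. For all genes of that class the shares were 35.4% with a candidate and 1.81% with a thresholded region. These classes went by the outermost 5′ end of a gene, whereas candidates were sought at any 5′ end. The rpt-4 candidate lay by an internal 5′ end and was shared with nfyc-1 on the opposite strand, 96 bp from the summit. It is therefore not a candidate without a divergent neighbour.

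Another 8 members started within 500 bp downstream of a same-strand gene, a spacing that in this species includes operons, in which genes are transcribed together from a promoter of the first gene. They were pas-1, pbs-3, pbs-5, rpt-3, rpn-6.2, rpn-10, rpn-11 and rpn-13. A pooled candidate was present at 4 of these 8 (50%, against 42.5% of all genes so placed) and a thresholded region at 2 (25%, against 2.15%). The latter were pbs-3, which began 23 bp after the end of ulp-2 and whose summit lay in a ulp-2 exon, and rpn-11, which began 225 bp after K07D4.2. In 3 cases, pas-1, pbs-5 and rpn-10, the upstream gene's 5′ end had the stronger pooled candidate. At K05C4.2, 111 bp upstream of pbs-5, the pooled signal was 69.5 (rank 175), with rank 215 in replicate 1 and 292 in replicate 3, and its summit lay 282 bp upstream of K05C4.2. That exceeded the signal at every proteasome gene. At rpoa-12, an RNA polymerase I subunit gene that ends 107 bp before pas-1, the signal was 22 (rank 3102), while pas-1 had no candidate in any list. At mrpl-9, a mitochondrial ribosomal protein gene that ends 119 bp before rpn-10, the candidate was weak (rank 19536).

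The 6 members without a pooled candidate were pas-1, pas-5, pbs-6, rpt-3, rpn-6.2 and rpn-10. Their nearest pooled summits were 710 bp (rpt-3), 886 bp (pas-1), 945 bp (pas-5), 1254 bp (pbs-6), 1467 bp (rpn-10) and 1555 bp (rpn-6.2) from the 5′ end. The one near pas-5 was upstream and passed the threshold, with a signal of 46.7 (rank 532), and no protein-coding 5′ end lay within 500 bp of it. In the single libraries pas-5, pbs-6 and rpn-10 had a candidate in replicate 3, at ranks 5602, 18878 and 21309. The genes rpt-3 and rpn-6.2 had a candidate in replicate 1, at ranks 11854 and 11091. Across the genome, members were on every autosome and none was on X.

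The sequence around 7 of the 9 thresholded summits is given to show what the regions hold. The windows of pas-4 and of pbs-3, whose summit lies in the ulp-2 exon, are not shown. The windows reach 50 bp to either side of the summit on WBcel235, 5′ to 3′ on the strand of the member, from the RefSeq copy of the genome, and were cut back where they met a coding-gene exon. Capitals mark the short words searched on both strands, the core of SKN-1 binding sites (GTCAT or ATCAT), the extended site of GATA factors (TGATAA), a repeat known as the GAGA element (GAGAGA) and an E2F-like site (GCGGGAA). The windows are from chrIII:8447128-8447228 (rpn-3), chrV:6017765-6017865 (rpt-2), chrII:4044547-4044607 (rpn-11), chrII:11239208-11239308 (rpn-9), chrIV:1709892-1709992 (pbs-1), chrIII:12370058-12370158 (rpt-6) and chrII:10100084-10100184 (pas-7), with rpn-3 and rpt-6 on the plus strand and the others on the minus strand.
rpn-3: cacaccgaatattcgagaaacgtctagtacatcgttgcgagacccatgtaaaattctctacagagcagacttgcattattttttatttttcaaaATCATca
rpt-2: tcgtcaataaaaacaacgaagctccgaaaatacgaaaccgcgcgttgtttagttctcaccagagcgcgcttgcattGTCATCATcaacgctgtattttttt
rpn-11: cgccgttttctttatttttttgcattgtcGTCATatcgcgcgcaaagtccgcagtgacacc
rpn-9: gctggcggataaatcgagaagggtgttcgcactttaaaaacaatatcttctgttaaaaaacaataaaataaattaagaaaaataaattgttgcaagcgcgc
pbs-1: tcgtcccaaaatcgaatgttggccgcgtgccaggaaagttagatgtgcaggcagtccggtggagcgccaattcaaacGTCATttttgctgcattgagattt
rpt-6: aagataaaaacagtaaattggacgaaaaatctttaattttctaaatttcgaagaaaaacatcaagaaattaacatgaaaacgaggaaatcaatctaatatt
pas-7: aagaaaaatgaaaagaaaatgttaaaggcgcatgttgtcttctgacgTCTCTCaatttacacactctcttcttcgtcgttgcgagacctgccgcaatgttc

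Proteasome regions were poorer in GC than the typical strong region. Within 100 bp of the summit, the 9 thresholded members ranged from 27.9% GC at rpt-6 to 43.3% at pbs-1, with a median of 35.8%. The median over all 503 thresholded regions at gene starts was 41.8%. Over the 27 members with any candidate the median was 35.3%, the same as over the 9326 pooled candidates at gene starts. The word GAGAGA was present at 1 of the 9, pas-7, against 33% of thresholded regions at gene starts. TGATAA was at none of the 9 (14.3% of thresholded regions at gene starts) and at 1 of the 27, rpn-6.1 (3.7%, against 22.6% of pooled candidates at gene starts). GCGGGAA was at rpn-2 and rpn-11 among the 27 (7.41%, against 2.73% of pooled candidates at gene starts). The longest run shared by 2 of the printed windows had 13 bases, TCGTTGCGAGACC, in pas-7 and rpn-3. It occurred within 100 bp of 34 of the 30000 pooled summits (0.113%) and of 9 of the 857 thresholded ones (1.05%).

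The SKN-1 core word was present within 100 bp of the strongest summit at 20 of 27 members (74.1%), against 53.9% of pooled candidates at gene starts. By particle it was at 8 of 11 core and 12 of 16 regulatory members. A word this short is frequent, so longer words shared among members were then listed, a search made after the values were seen. Of the 24 words of 9 bases found at 4 or more members, ATTGTCATC, which contains the SKN-1 core, was the one most frequent at members relative to all candidates. It was present at 6 of 27 members (22.2%), at 28 of 9326 pooled candidates at gene starts (0.300%) and at 5 of 857 thresholded regions (0.583%). The 6 members were pas-2, pbs-1, rpt-2, rpt-4, rpn-2 and rpn-11, and the word lay between 2 bp (pas-2) and 57 bp (rpn-2) from the summit. Of the 5 thresholded regions with the word, 3 were those of pbs-1, rpt-2 and rpn-11. In the 500 bp upstream of every gene on the same genome, without regard to HPL-2, the word was at 5 of 33 members (15.2%) and at 178 of 19973 protein-coding genes (0.891%), among them 1 of 78 ribosomal protein genes and none of the vacuolar ATPase genes. The member in that count without a match near its summit was rpn-1, where the word was 258 bp upstream and 217 bp from the summit. A word chosen for its frequency at these genes supports nothing by that frequency, and a match is not evidence of binding.

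The matches at members whose window met no coding-gene exon follow, with the word in capitals, 5′ to 3′ on the strand that reads it, at chrV:10770240-10770280 (pas-2, minus), chrIV:1709867-1709907 (pbs-1, plus), chrV:6017768-6017808 (rpt-2, minus), chrII:43769-43809 (rpt-4, plus) and chrIII:6198859-6198899 (rpn-2, minus).
pas-2: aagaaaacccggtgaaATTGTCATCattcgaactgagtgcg
pbs-1: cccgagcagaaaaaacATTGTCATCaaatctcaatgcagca
rpt-2: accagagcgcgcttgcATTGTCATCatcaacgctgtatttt
rpt-4: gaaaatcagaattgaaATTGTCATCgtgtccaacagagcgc
rpn-2: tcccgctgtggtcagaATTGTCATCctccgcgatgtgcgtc

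Noncoding RNA genes were near several of the strong regions. An annotated noncoding RNA gene lay within 250 bp of the summit at 4 of the 9 thresholded members (44.4%), against 19.3% of all genes with a thresholded region. The share was 30.8% at ribosomal protein genes and 0% at vacuolar ATPase genes with such a region. At pas-4, pas-7 and rpt-2 the summit lay inside one, C36B1.16, ZK945.13 and F29G9.10 respectively. At rpn-3 the gene C30C11.14 was 83 bp away. The annotation gives these as ncRNA without a further class.

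Of 18 other genes of the ubiquitin-proteasome pathway, 11 had a pooled candidate (against 39.6% of all protein-coding genes) and 3 a thresholded region (against 3.34%). The strongest was cdc-48.1, whose product extracts ubiquitinated proteins from complexes and membranes, with a pooled signal of 184 (rank 10) and ranks of 6 in replicate 1 and 73 in replicate 3. The ubiquitin gene ubq-2 had a pooled signal of 63.7 (rank 232), with its summit 454 bp upstream in a region shared with frg-1. Its rank was 225 in replicate 1 and 1610 in replicate 3. The gene aip-1, which encodes an arsenite-inducible protein that associates with proteasomes, had 46.0 (rank 548), in a region shared with ddx-17. The other 8 genes with a pooled candidate, which encode ubiquitin (ubq-1), the ubiquitin-activating enzyme (uba-1) and proteasome-associated or shuttling factors among others, had signals from 13.0 to 34.3. They were dss-1, ubq-1, uba-1, ddi-1, psme-3, usp-14, rad-23 and ufd-1. No pooled candidate was found at skn-1, png-1, psmd-9, ubh-4, cdc-48.2, npl-4.1 or npl-4.2.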

How the data were processed

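ChIP-seq regions of 2 libraries, biological replicates 1 and 3 of 1 group, were used. Per the deposited file listings, candidate regions were derived from the alignments of the libraries and 1 control file, and the thresholded list from the pooled and single-library candidates by irreproducible discovery rate (IDR). The control was not analysed here. Which aligner, region caller and IDR cutoff were used is not given in the sources used here. In the deposited lists, column 7 is the signal and column 9 the −log10 of a q-value, for which 849 of 857 thresholded regions share the highest value. Regions were ranked by signal within each list. The summit was the region's start plus its offset, written 1-based on ce11.

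Protein-coding transcripts came from Ensembl release 115 (WBcel235, the sequence of ce11) and bases from the RefSeq copy of WBcel235. A gene had a region when a summit lay within 500 bp of any of its transcript 5′ ends, and the best-ranked such region was used. Shares were computed over all protein-coding genes with the same code, which was tested on simulated data. Each thresholded member and the 3 strongest members of each particle below the threshold were described in full, and members without a candidate were named. Values of other members were picked for print after they were seen. Members and gene lists were chosen with earlier results of these data known. No test was run: there is 1 group, and genes are not replicates. Python 3.11.15 and matplotlib 3.10.9 were used. Pooled ce10 lists served only to check the threshold, and no coordinates were converted. Alternatives changed the distance limit, the list, the library, the 5′ end used and the overlap rule.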

Additional observations from a re-analysis of the deposited data

How the results depend on the processing

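The count of 9 members with a thresholded region depended most on rank and library. It was 1 (rpn-3) among the 428 strongest regions, against 1.71% of all protein-coding genes, a share too close to 1 of 33 (3.03%) to set the members apart. It was 3 when a top region was required in each library (1.59% of all genes), and from 4 to 8 with 1 library left out (2.87% and 3.21%). For the core count of 4 the corresponding values were 0, 0 and a range from 0 to 4, and for the regulatory count of 5 they were 1, 3 and 4 with either library left out. With a limit of 250 bp the regulatory count was 3, since the summits of rpn-9 and rpt-6 lay farther out, and the count of all members was 6, against 2.02% of all protein-coding genes. A limit of 1000 bp gave 10 members (4.28% of all genes), the addition being pas-5. The nearest gene alone gave 8 members (2.51%). The outermost 5′ end (3.2%) and overlap with the window by 1 bp (3.68%) each gave 9. The authors' thresholded list on ce10, chosen after seeing the data and matched by signal, also gave 9. That list was shorter, with 766 regions and a lowest signal of 39.9, and pas-7 was near its end at rank 745. No share of all genes was computed for it. A pooled candidate was present at 18 members with the limit of 250 bp and at 30 with that of 1000 bp. The share of all genes with a pooled candidate was not computed at these limits, so these counts do not set the members apart. Of the 15 members described in full, the strongest signal changed with the limit at 1: rpt-6 went to 21.1 at 250 bp. Another 5 (pas-7, pbs-2, rpn-2, rpn-7 and rpn-9) had no region left at that limit. Depth is unknown, so a missing candidate does not show absence of HPL-2.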
